A study of Mus with 16 samples.

Results

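Lysosomal protease genes of the cathepsin family were followed across the forebrains of *Kdm5c* mutant and wild-type mice: *Ctsz* (ENSMUSG00000016256), *Ctsb* (ENSMUSG00000021939), *Ctsd* (ENSMUSG00000007891), *Ctss* (ENSMUSG00000038642), and *Ctsl* (ENSMUSG00000021477). They are 5 of the 54219 Ensembl genes in the count table, and all 5 were among the 17866 that passed the filter on low counts. *Ctsz* was chosen on its higher expression in the mutants of both sexes, so its own mutant to wild-type values are given as a description with no test. The other 4 genes were taken as further cathepsins. The samples were microdissected cortices and hippocampi of 16 mice at postnatal day 6 (P6), sequenced as poly(A) RNA. There were 4 wild-type (WT) males, 4 males with a hemizygous deletion (*Kdm5c*-KO), 4 WT females, and 4 females with a heterozygous deletion (*Kdm5c*-HET). *Kdm5c* lies on the X chromosome and encodes a demethylase of lysine 4 on histone H3. The allele came from Cre-mediated removal of exons, on a mixed background that includes C57BL/6J. *Kdm5c*-KO males have no intact copy, while *Kdm5c*-HET females keep an intact copy on the other X chromosome.

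Cathepsins are proteases that work mainly in the acidic lysosome, where they are made active by removal of a propeptide. *Ctsb*, *Ctsl*, and *Ctss* encode cysteine endopeptidases, and *Ctsd* encodes the main aspartic protease of the compartment. *Ctsz* encodes cathepsin Z, also called cathepsin X, a cysteine carboxypeptidase that removes single residues from the C-terminal end of its substrates. In brain, *Ctsb*, *Ctsd*, and *Ctsl* are expressed in many cell types, whereas *Ctss* and *Ctsz* are known as genes of microglia and other myeloid cells.

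The total count per library ranged from 21513783 to 30063352 over the 16 animals. Each sample label carries the letter D or E, which is not explained in the sources used here, and the letter was unevenly spread over the groups. Letter E marks 1 of 4 WT males, 2 of 4 *Kdm5c*-KO males, 2 of 4 WT females, and 3 of 4 *Kdm5c*-HET females. The identifier of *Kdm5c* is not paired with its symbol in the tables used here, so expression of the deleted gene itself was not analysed here. The same holds for nearly all cell type markers: of 252 symbols in 17 lists of lysosomal, inhibitor, and cell type genes, 16 could be matched (6.35%). In bulk tissue, fewer cells of a type and less RNA per cell cannot be told apart.

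*Ctsz* lies on chromosome 2 of GRCm38 (mm10), from 174427494 to 174439039. Its RefSeq span meets that of *Nelfcd* (174415804 to 174427505), a subunit of the negative elongation factor, at their ends. Its expression was 24.0, 25.0, 24.2, and 24.5 CPM (counts scaled to library size) in WT males 2D, 5D, 7D, and 1E. *Kdm5c*-KO males 4D, 6D, 2E, and 3E had 40.0, 36.5, 35.9, and 39.4 CPM. Every *Kdm5c*-KO male was thus above every WT male, and the lowest mutant stood well clear of the highest WT animal. The share of all genes with such a separation was not counted, for this or any later comparison. Averaged over 4 animals per group (± SD), *Kdm5c*-KO males had 37.9 ± 2.06 CPM against 24.4 ± 0.432 CPM in WT. The Log2FC was 0.64 with a standard error of 0.0638, or 1.55-fold. The counts behind these values were 530 to 725 in WT and 888 to 1116 in *Kdm5c*-KO males. Over all genes, 5.24% were called in this comparison at an adjusted p (q) under 0.1, and nothing is read from that share for *Ctsz*, which this comparison helped to choose.

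In females, *Ctsz* was at 26.5, 23.8, 21.1, and 22.4 CPM in WT animals 1D, 3D, 4E, and 5E. *Kdm5c*-HET females 9D, 6E, 8E, and 9E had 29.5, 29.4, 29.9, and 27.8 CPM. The groups again did not overlap, but the gap was narrow, with WT female 1D closest to the mutants. The means were 23.4 ± 2.32 CPM and 29.1 ± 0.927 CPM (SD, n = 4 each), a Log2FC of 0.31 with a standard error of 0.0643, or 1.24-fold. In this comparison 0.509% of all genes were called. When WT female 3D, 4E, or 5E or *Kdm5c*-HET female 6E or 8E was left out, *Ctsz* was no longer among the genes called, with a Log2FC of 0.26 to 0.31.

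**Figure D1:**
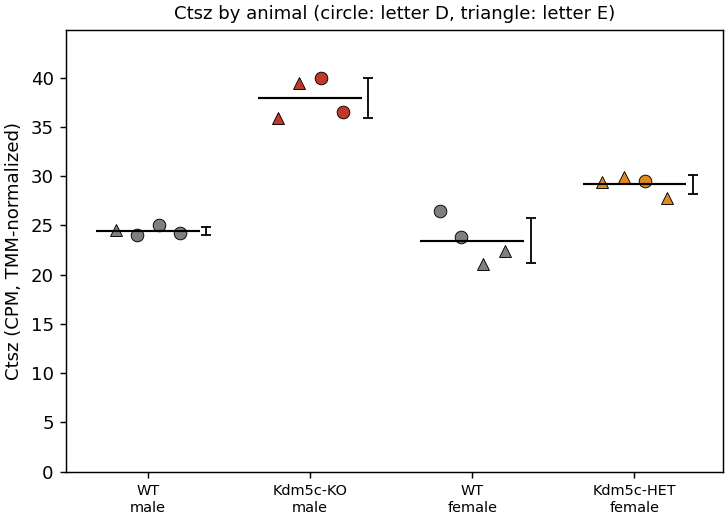
Normalized *Ctsz* expression (CPM, axis from 0) in each of the 16 animals by group, with circles for label letter D and triangles for E. Horizontal lines are group means and bars are SD (n = 4). *Kdm5c*-KO males lie between 35.9 and 40.0 CPM, *Kdm5c*-HET females between 27.8 and 29.9, and WT animals of either sex between 21.1 and 26.5.

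The order of the groups was thus *Kdm5c*-KO males, *Kdm5c*-HET females, WT males, and WT females. The last of these neighbours did not differ beyond their spread. WT females differed from WT males by a Log2FC of -0.06 (95% interval -0.19 to 0.08, q = 0.699 from edgeR's quasi-likelihood test), against a background of 5% of genes called. The response in *Kdm5c*-HET females was 0.488 of the response in *Kdm5c*-KO males on the log2 scale. The difference between the responses, the sex by genotype interaction, was -0.33 for *Ctsz*. It is made from the comparisons that chose the gene and is given with no test. For *Ctsb*, *Ctsd*, *Ctss*, and *Ctsl* the interaction lay between -0.03 and 0.07 and did not pass (q = 0.923 to 0.998, edgeR), where 0.0392% of all genes were called.

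*Ctsb*, on chromosome 14 from 63122462 to 63145923 in mm10, is the member closest to a fall in the mutants. Its RefSeq span overlaps the squalene synthase gene *Fdft1*, which leaves its counts uncertain to that extent. WT males 2D, 5D, 7D, and 1E had 310, 316, 311, and 305 CPM, and *Kdm5c*-KO males 4D, 6D, 2E, and 3E had 303, 297, 265, and 267 CPM. Each *Kdm5c*-KO male was below each WT male, with the D animals just below and the E animals well below. How many of all genes separated in this way was not counted. The Log2FC was -0.13 (standard error 0.0521, 95% interval -0.24 to -0.02). An exact two-sided permutation test of 4 against 4 animals gave p = 0.0286, the smallest it allows, but *Ctsb* did not pass over all genes (q = 0.198, edgeR). Adding the label letter to the fit gave a Log2FC of -0.10 and passed (q = 0.0654, edgeR). Within the letters it was -0.05 among D animals and -0.19 among E animals, the latter with a single WT male.

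In females the groups of *Ctsb* overlapped. WT females 1D, 3D, 4E, and 5E had 305, 308, 277, and 265 CPM, and *Kdm5c*-HET females 9D, 6E, 8E, and 9E had 288, 275, 261, and 273 CPM. The Log2FC was -0.08 (95% interval -0.18 to 0.03, q = 0.937, edgeR). The highest *Kdm5c*-HET animal was the one with letter D, and the lower pair of WT animals carried letter E.

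*Ctsd*, on chromosome 7 from 142375910 to 142387827, overlaps no other RefSeq gene. It was at 97.4, 108, 101, and 94.7 CPM in WT males 2D, 5D, 7D, and 1E. *Kdm5c*-KO males 4D, 6D, 2E, and 3E had 111, 100, 82.3, and 90.1 CPM, so that the mutants reached both above and below the WT range. The Log2FC was -0.07 (95% interval -0.23 to 0.09, q = 0.731, edgeR). *Kdm5c*-HET females averaged 89.6 ± 4.72 CPM and their WT counterparts 93.5 ± 7.78 CPM (± SD over 4 animals). Their Log2FC was -0.06 (95% interval -0.22 to 0.10, q = 0.979, edgeR).

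*Ctsl*, on chromosome 13 from 64361890 to 64370772, likewise overlaps no other RefSeq gene. *Kdm5c*-KO males averaged 90.4 ± 7.13 CPM and their WT counterparts 89.9 ± 2.67 CPM (± SD over 4 animals). The Log2FC was 0.01 (95% interval -0.12 to 0.13, q = 0.974, edgeR), and the mutants again lay on both sides of the WT range. WT females 1D, 3D, 4E, and 5E had 85.0, 86.6, 75.3, and 73.1 CPM, and *Kdm5c*-HET females 9D, 6E, 8E, and 9E had 88.8, 82.7, 79.9, and 87.0 CPM. Their Log2FC was 0.08 (95% interval -0.05 to 0.21, q = 0.953, edgeR). *Ctsl* showed the largest sex difference of the 5 genes in WT animals, a Log2FC of -0.17 in females against males (standard error 0.0606, q = 0.146, edgeR), which did not pass. It passed when the label letter was added to the fit (-0.13, q = 0.0505, edgeR), with DESeq2 (-0.17, q = 0.0804), and without WT female 3D (-0.21, q = 0.0951, edgeR). The fit with the letter called 9.4% of all genes in this comparison, and DESeq2 called 14.9% of the 10245 genes to which it gave an adjusted p.

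*Ctss*, on chromosome 3 from 95526786 to 95556405, was the least counted member, with 154 to 332 reads per library. A processed copy of another gene, *Hmgb1-ps5*, lies inside its span. WT males 2D, 5D, 7D, and 1E had 12.4, 10.4, 10.3, and 10.2 CPM, and *Kdm5c*-KO males 4D, 6D, 2E, and 3E had 13.3, 11.7, 8.32, and 9.95 CPM. The means were 10.8 CPM in both groups, with an SD of 1.07 in WT and 2.16 in *Kdm5c*-KO males (n = 4 each). The 95% interval of the Log2FC ran from -0.30 to 0.29 (q = 0.996, edgeR). In females the Log2FC was -0.03 (95% interval -0.33 to 0.27, q = 0.999, edgeR), and this value rests on WT female 5E, at 6.75 CPM. The 4 *Kdm5c*-HET animals, at 9.17 to 10.2 CPM, lay above it and below the other WT females, at 10.3 to 10.9 CPM. Without 5E the Log2FC was -0.17 (q = 0.835, edgeR).

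**Figure D2:**
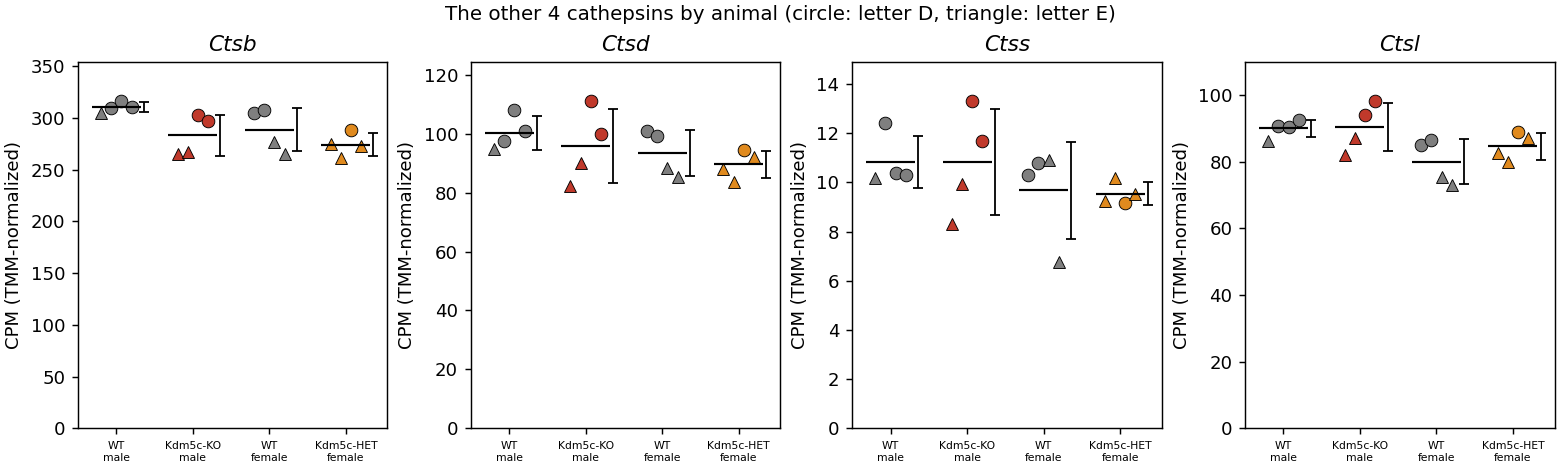
Normalized expression (CPM, axes from 0) of *Ctsb*, *Ctsd*, *Ctss*, and *Ctsl* in each animal by group, with circles for letter D, triangles for letter E, lines for group means, and bars for SD (n = 4). Mutant and WT animals overlap in each panel except for *Ctsb* in males, where *Kdm5c*-KO animals lie between 265 and 303 CPM and WT animals between 305 and 316.

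By edgeR's test at q under 0.1, 0 of the 4 other cathepsins were thus called in either sex, against 5.24% of all genes in males and 0.509% in females. So small a list is not set apart from other genes by this count. An unadjusted edgeR p under 0.05 was found for 1 of the 4 in males, *Ctsb*, and for 0 of the 4 in females, against 2939 and 1159 of 17866 genes. DESeq2 also called 0 of the 4 in mutants of either sex, while the fit with the label letter called 1 of the 4 in males, *Ctsb*. Over all genes tested, DESeq2 called 6.34% in males and 0.795% in females, and the fit with the letter called 8.22% in males.

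**Figure D3:**
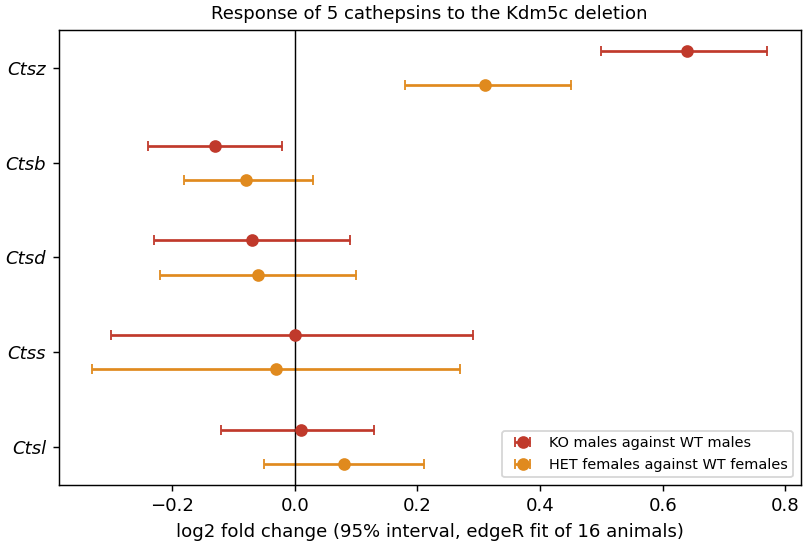
Log2 fold change of the 5 cathepsins in *Kdm5c*-KO males against WT males and in *Kdm5c*-HET females against WT females, with 95% intervals from the edgeR fit of 16 animals. *Ctsz* stands at 0.64 in males and 0.31 in females, while the other 4 genes lie between -0.13 and 0.08.

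A ratio of reads within a library does not depend on the scaling between libraries, and it is given here as a description. *Ctsb* was itself lower in *Kdm5c*-KO than in WT males (Log2FC -0.13), which widens the ratio in males. Per 100 *Ctsb* reads, *Kdm5c*-KO males had 13.4 ± 1.01 *Ctsz* reads and their WT counterparts 7.86 ± 0.132 (± SD over 4 libraries). The ratio was 7.74 to 8.03 in individual WT males and 12.3 to 14.7 in individual *Kdm5c*-KO males. *Kdm5c*-HET females had 10.6 ± 0.593 (10.2 to 11.5), against 8.11 ± 0.541 (7.59 to 8.68) for WT. The mutants were above the WT animals of their sex in all 8 libraries. As a share of the reads of all 5 genes, *Ctsz* took 7.35% in *Kdm5c*-KO males against 4.55% in WT, and 5.99% in *Kdm5c*-HET females against 4.73%.

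**Figure D4:**
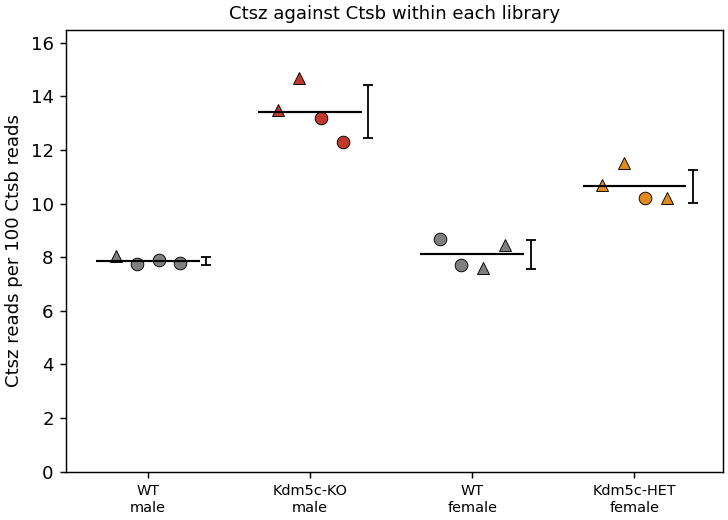
*Ctsz* reads per 100 *Ctsb* reads in each library (axis from 0), with lines for group means and bars for SD (n = 4), circles for letter D, and triangles for letter E. WT libraries of either sex lie between 7.59 and 8.68, *Kdm5c*-HET females between 10.2 and 11.5, and *Kdm5c*-KO males between 12.3 and 14.7.

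The label letter moved with *Ctsb*, *Ctsd*, and *Ctsl*. After their values were seen, the letter was tested as a term beside the 4 group means. From letter D to letter E, *Ctsb* decreased by 8.42% (Log2FC -0.13, standard error 0.0242, q = 0.000745, edgeR). *Ctsd* decreased by 12.2% (Log2FC -0.19, standard error 0.0366, q = 0.000887, edgeR), and *Ctsl* decreased by 9.84% (Log2FC -0.15, standard error 0.0295, q = 0.00105, edgeR). For these 3 genes the mean of the E animals was below that of the D animals in each of the 4 groups. Over all genes 23.6% were called for the letter, so that such a call is not particular to cathepsins. *Ctss* had a Log2FC of -0.22 (q = 0.118, edgeR) and *Ctsz* of -0.07 (q = 0.341, edgeR), which did not pass. *Ctsz* was at 38.3 and 37.6 CPM in the D and E animals of *Kdm5c*-KO males, and at 24.4 and 24.5 CPM in those of WT males. Its Log2FC within the letters was 0.66 among D and 0.62 among E animals in males, and 0.23 and 0.42 in females, where the D comparison has 1 *Kdm5c*-HET animal.

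**Figure D5:**
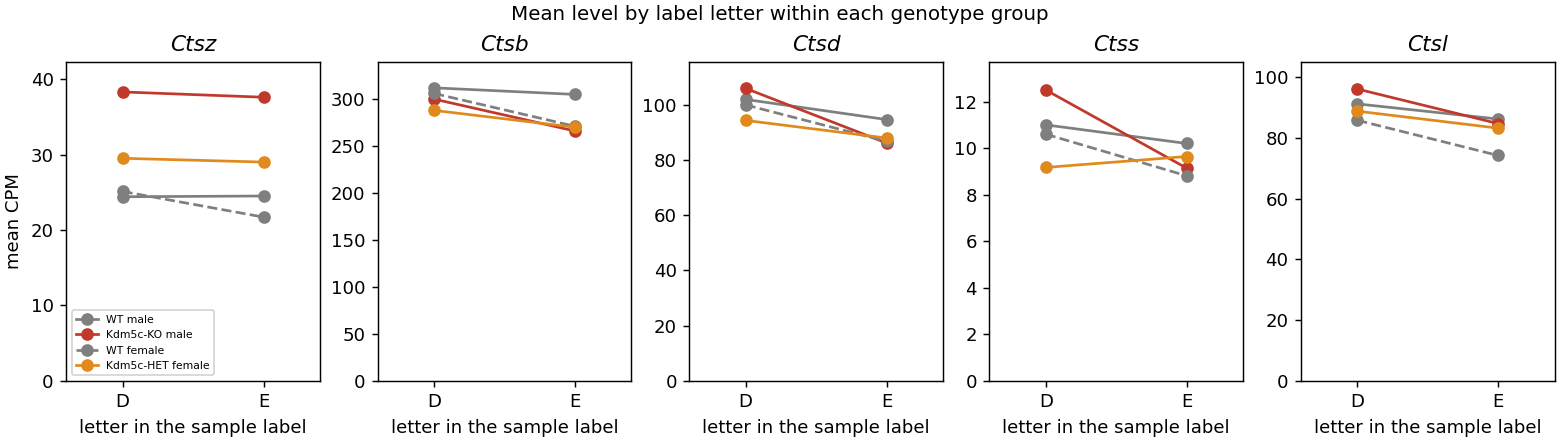
Mean expression (CPM, axes from 0) of each cathepsin in the animals with label letter D and E, joined by a line for each group (solid grey WT males, dashed grey WT females, red *Kdm5c*-KO males, orange *Kdm5c*-HET females; 1 to 3 animals a point). The lines of *Ctsb*, *Ctsd*, and *Ctsl* go down in all 4 groups, and those of *Ctsz* keep the order of *Kdm5c*-KO, *Kdm5c*-HET, and WT animals.

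The members also differed in how they varied from animal to animal. With group means removed, the log2 CPM of *Ctsb* correlated with that of *Ctsl* (r = 0.93) and *Ctsd* (r = 0.91) over the 16 animals, and that of *Ctsd* with *Ctsl* (r = 0.86). *Ctss* correlated with these 3 genes at r = 0.62 to 0.67. *Ctsz* was the least tied to the others, with r = 0.26 to *Ctss* and at most 0.52, to *Ctsd*. The animals share the label letter and their libraries in these correlations, which are given with no test. The pooled within-group SD of log2 CPM was 0.0847 for *Ctsz*, against a median of 0.0989 in the 500 genes nearest to it in level. It was 0.125 for *Ctsd* against 0.067, and 0.232 for *Ctss* against 0.154. The spread of *Ctsz* between animals was 1.77% of the mean in WT males and 3.18% in *Kdm5c*-HET females, less than the counting error of a single library (up to 4.34% and 3.91%). It was above that error in *Kdm5c*-KO males (5.44% against 3.36%) and in WT females (9.90% against 4.45%).

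Likeness to *Ctsz* could be ranked among 1013 genes with a symbol, which the study listed as changed in these same samples. The highest correlations with *Ctsz* over the 16 animals, on log2 CPM, were with *Tex14*, *Krt1*, and *Ucp2* (r = 0.96 each) and with *Adcy7* and *Parvb* (r = 0.95 each). *Tex14* encodes a protein of germ cell bridges, *Krt1* a keratin, *Ucp2* a mitochondrial carrier, *Adcy7* an adenylate cyclase, and *Parvb* a focal adhesion protein. These correlations keep the group means, so genes like *Ctsz* by this measure and from this list had to differ between mutant and WT animals, and the shared direction is no result. The Log2FC was 3.36 in males and 1.35 in females for *Tex14*, and 0.46 and 0.20 for *Ucp2*. With group means removed, the gene most like both *Ctsb* (r = 0.98) and *Ctsl* (r = 0.95) was *Bsg*, the membrane glycoprotein basigin. The genes most like *Ctsd* were *Ttc9b* and *Lypd1* (r = 0.92 each), and the gene most like *Ctss* was *Azin2* (r = 0.85).

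Of the lysosomal and inhibitor genes listed beside the cathepsins, 6 could be matched to an identifier. They were matched through a list of genes already picked as changed on these samples, so their number and direction are not independent evidence. *Gaa*, which encodes the lysosomal enzyme that breaks down glycogen, was the one among them with a profile like that of *Ctsz*. *Kdm5c*-KO males ranged from 241 to 286 CPM and their WT counterparts from 163 to 183 CPM (Log2FC 0.61, standard error 0.0681, q = 9.08e-06, edgeR). *Kdm5c*-HET females ranged from 187 to 237 CPM, above the 154 to 174 CPM of WT (Log2FC 0.37, standard error 0.0682, q = 0.0131, edgeR). Neither sex showed overlap. The other 5 were lower in *Kdm5c*-KO than in WT males and passed in no comparison of *Kdm5c*-HET with WT females (edgeR). In males the proton pump subunits *Atp6v0b* and *Atp6v1f* had Log2FC of -0.15 (q = 0.0424) and -0.21 (q = 0.0978), and the sialic acid exporter *Slc17a5* -0.25 (q = 0.06). The sorting adaptor *Gga1* had a Log2FC of -0.15 (q = 0.0708) and the serpin *Serpinb6a* -0.26 (q = 0.0364). WT females were also below WT males for *Atp6v0b* (141 against 155 CPM, q = 0.0825, edgeR) and *Atp6v1f* (48.7 against 59.7 CPM, q = 0.0363, edgeR). In that comparison 5% of all genes were called. *Serpinb6a* (23.7 against 27 CPM, q = 0.136), *Gga1* (q = 0.522), and *Slc17a5* (q = 0.841) did not pass there (edgeR). No other cathepsin, cystatin, or regulator of lysosomal transcription could be matched.

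Among 22 microglia markers, only the lectin gene *Siglech* could be matched, so the others were not seen. The list genes named here were matched through the study's list of genes changed in these samples. A change in them is therefore not independent evidence. *Kdm5c*-KO males averaged 8.35 ± 1.42 CPM, against 5.56 ± 0.945 CPM for WT (± SD over 4 animals; Log2FC 0.58, q = 0.0736, edgeR). *Kdm5c*-HET females averaged 6.67 ± 1.03 CPM, against 5.08 ± 1.30 CPM for WT (± SD over 4 animals; Log2FC 0.38, q = 0.725, edgeR). It thus moved with *Ctsz* in males, while *Ctss* was level, and its part in the *Ctsz* values was not tested. Unlike *Siglech*, the neuronal marker *Rbfox3* was lower in *Kdm5c*-KO than in WT males (265 to 233 CPM on average, q = 0.0642, edgeR). The water channel gene *Aqp1*, a listed marker of choroid plexus, was lower in the same animals (2.12 to 0.535 CPM, q = 0.0642, edgeR). It ranged from 0.762 to 3.48 CPM in WT males. So were the hemoglobin genes *Hba-a1* (51.0 to 33.9 CPM, q = 0.00131, edgeR) and *Hba-a2* (7.34 to 4.59 CPM, q = 0.00904, edgeR) lower in *Kdm5c*-KO males. Both were also lower in WT females (38.6 and 5.05 CPM) than in WT males (q = 0.0417 and 0.0519, edgeR). In that comparison 5% of all genes were called. The part of these markers in the cathepsin values was not tested. The class II antigen gene *H2-Ab1* rose in *Kdm5c*-HET females from 0.354 to 1.07 CPM on average (Log2FC 1.59, q = 0.027, edgeR), with a Log2FC of 0.30 in males (q = 0.707, edgeR). *Ttr*, a choroid plexus gene, was at 201 and 202 CPM in WT males 2D and 5D and at most 5.6 CPM in the other WT males and in all *Kdm5c*-KO males. In females it was at 181 and 191 CPM in WT animals 1D and 3D, 84.5 and 57.7 CPM in *Kdm5c*-HET animals 8E and 9E, and at most 4.25 CPM in the rest. Without WT males 2D and 5D the Log2FC of *Ctsz* in males was 0.64, as with them.

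Within 500000 bases of *Ctsz*, RefSeq lists 28 other genes, 9 of them protein coding, of which 2 could be matched. Neighbours were matched through the study's list of genes changed in these samples, so a change in them is not independent evidence. *Npepl1*, an aminopeptidase gene 304792 bases away, rose in *Kdm5c*-KO males (Log2FC 0.56, q = 0.00156, edgeR) with a Log2FC of 0.14 in females (q = 0.937, edgeR). *Prelid3b*, 26037 bases away, fell in *Kdm5c*-KO males (Log2FC -0.20, q = 0.0748, edgeR) and had a Log2FC of 0.03 in females (q = 0.991, edgeR). The nearest gene upstream in coordinates without overlap was the imprinted signalling gene *Gnas*, which was not matched. Matched neighbours were also found near *Ctsd*, which itself did not pass. In *Kdm5c*-KO males *Lsp1*, 70396 bases from *Ctsd*, had a Log2FC of 1.015 (q = 0.000831, edgeR). *Dusp8*, 280003 bases from *Ctsd*, had -0.116 (q = 0.12, edgeR).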

How the data were processed

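Counts were made by the authors from paired-end reads of directional poly(A) libraries, mapped to mm10 with STAR 2.5.3a, with duplicates removed and unique reads kept. They were deposited without normalization, as whole-number counts per Ensembl gene from FeatureCounts (Subread 1.5.0). Reads shared with near-identical copies are therefore missing, and the strand setting is not given in the sources used here. Columns were assigned by the animal code in the sample titles. Counts were filtered with filterByExpr, normalized by TMM, and tested with glmQLFit and glmQLFTest in edgeR 4.0.16 (R 4.3.3), with 1 mean per group over all 16 animals. The threshold was a Benjamini-Hochberg adjusted p (q) of 0.1 over 17866 genes. Log2 CPM used a prior count of 2.

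The design states 4 animals per genotype. The animals came from several litters, which the labels do not assign to animals, so litter could not be modelled. The chi-square statistic per gene exceeded sampling noise in all 24 within-group pairs (2.78 to 13.9), so each animal was 1 replicate. Tested on simulated data, a true Log2FC of 1 in males was called for 78.5% of the altered genes, while 8.72% of calls were false (17605 genes). For 0.5 in females, the shares were 61% and 11.6% (17613 genes).

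Symbols of the 5 members came from the list that defined them, and others from the study's supplementary table, which pairs 1014 identifiers with a symbol; its fold changes and q values were not used. Coordinates are from RefSeq on GRCm38.p6. Exon lengths, promoter sequences, and protein sequences were not used here, so levels were not compared between genes. Because so few list genes matched, no list was summarised. The members and lists were chosen with earlier results of these data known. Genes named are the 5 members, called genes of the lists, some genes near members, and the genes most correlated with each member. Alternatives were DESeq2 1.42.0, its size factors, other filters, fewer animals, the label letter, and a threshold of 0.05. A matched list gene is not reported here.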

Additional observations from a re-analysis of the deposited data

Results flagged for a closer look

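Each of 20 sets of 4 animals (5 genes in 4 groups) was searched for an animal standing apart. The measure was its distance to the nearest other animal, as a share of the range of its group. In 2 sets this share, at 0.874 and 0.867, was above Dixon's critical value for groups of 4. Chance gives about 1 such set in 20. Both concern *Ctss*, the member with the fewest reads. WT male 2D had 12.4 CPM, while the other WT males had 10.2 to 10.4. WT female 5E had 6.75 CPM, from 154 reads, while the other WT females had 10.3 to 10.9.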

How the results depend on the processing

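The Log2FC of *Ctsz* in males stayed between 0.62 and 0.66 under the alternatives and between 0.61 and 0.66 with each animal left out. In females it was 0.31 in a fit of only the 8 females and 0.23 within letter D, in neither of which it was among the genes called, and 0.26 to 0.37 with each animal left out. *Ctsb* in males passed with the letter as a covariate (-0.10). The WT sex difference of *Ctsl* passed with DESeq2 (-0.17), with the letter (-0.13), and without WT female 3D (-0.21), and ranged from -0.21 to -0.13 with animals left out. Of 515 values for the 5 genes, 44 changed sign and none of these passed the threshold. *Ctss* in males was at 0 with DESeq2, with its size factors, without the filter, and in the fit of males only, at 0.01 with at least 10 counts in every animal, at 0.05 with the letter, at 0.19 within letter D, at 0.08 without WT males 2D and 5D, and at -0.11 to 0.10 with animals left out. In females *Ctss* was at 0.03 with the letter, 0.13 within letter E, -0.21 within letter D, and -0.17 to 0.03 with animals left out. Its interaction was 0.28 within letter E, -0.40 within letter D, and -0.17 to 0.08 with animals left out. The interaction of *Ctsd* was 0 under DESeq2, its size factors, and either other filter, -0.14 within letter D, -0.03 without WT males 2D and 5D, and -0.06 to 0.08 with animals left out. Within letter D, *Ctsd* in males was 0.06, the interactions of *Ctsb* and *Ctsl* were each -0.04, and *Ctsz* in WT females against males was 0.04. Within letter E, *Ctsl* in males was -0.03 (-0.03 to 0.05 with animals left out) and *Ctsd* in females 0.02. The cause was not tested.

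The number of genes called over the whole table moved more. In males it was 937, and 1468 with the letter, 404 within letter D, 408 within letter E, 583 at q under 0.05, 274 without WT males 2D and 5D, and 555 to 1129 with animals left out. In females it was 91, and 142 with DESeq2, 228 without the filter, 157 with the letter, 17 within letter D, and 50 to 89 with animals left out. For the interaction it was 7, and 27, 80, 24, 0, and 31 with DESeq2, without the filter, with the letter, within letter D, and within letter E, and 3 without WT males 2D and 5D. For WT females against males it was 894, and 1529 with DESeq2, 1679 with the letter, 219 and 301 within letters D and E, 348 at q under 0.05, 10 without WT males 2D and 5D, and 69 to 1243 with animals left out. No paired analysis was possible because each animal code occurs once. The label letter is shared across groups, and the fits with it as a covariate are those given here.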
